A study of Homo sapiens with 9 samples.

Results

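The genes of the proteasome, the protease complex that degrades ubiquitin-tagged proteins, were followed in LNCaP cells, an established androgen-responsive human prostate cancer line. The members were taken by name, as the protein-coding genes whose symbols begin with PSMA, PSMB, PSMC, PSMD, PSME, PSMF or PSMG, which gave 50 genes among the 60880 gene rows of each count table. Of these, 47 were among the 18389 genes with enough counts to be tested. PSMC3IP and PSME3IP1 match the naming rule but encode proteins named for binding a proteasome component and are kept apart from the subunits.

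The cells formed 3 groups. In the rescue, the labels give overexpression of UGT2B28 on top of its knockdown, with selection by G418 at 1 mg/mL. The knockdown of UGT2B28 was selected with puromycin at 3 µg/mL. The control is labelled NT, and the labels name no antibiotic for it. UGT2B28 belongs to the enzymes that attach glucuronic acid to steroids. Total RNA was sequenced at 24 h from 3 libraries per group, and whether these were separate cultures is not labelled. All p-values therefore reflect the spread between libraries alone, which may be technical. The knockdown was 1 line and the rescue was built on it. An effect of the knockdown therefore cannot be told apart from a property of that line or from its puromycin. Both contrasts with control also differ in antibiotic as labelled, and an effect of the antibiotic cannot be separated there. An effect of the rescue construct cannot be told apart from the change of antibiotic.

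The proteasome is built from a barrel-shaped 20S core and a 19S regulatory particle that caps it. The core stacks outer rings of alpha subunits, which form the gate, on inner rings of beta subunits, which carry the proteolytic sites; the cap has a base with a ring of ATPases that unfold substrates and a lid that removes ubiquitin. Dedicated chaperones assemble core and cap without being part of the finished particle, and when proteasome activity falls, the transcription factor NFE2L1 raises the genes of most subunits together. PSMD5 is a chaperone of the cap that binds the ATPase PSMC2 during assembly, and its silencing together with promoter methylation has been described in colorectal tumours.

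The promoter of PSMD5, the member whose transcript differed most between the groups, is shown with those of PSMD8, a lid subunit with higher levels in both derived lines than in control, and PSME4, a proteasome activator with lower levels in both. Each is the part of the RefSeq promoter window (GRCh38.p14) that lies upstream of every annotated start, printed 5′ to 3′ on the gene's strand. These are chr9:120842985-120843172 on the minus strand for PSMD5, chr19:38374321-38374535 on the plus strand for PSMD8 and chr2:53970994-53971243 on the minus strand for PSME4. Capitals mark the core of the antioxidant response element, to which NFE2L1 binds (TGACNNNGC or its reverse complement), in PSMD5 and PSME4, and a CCAAT box (on the opposite strand) in PSMD8.
PSMD5: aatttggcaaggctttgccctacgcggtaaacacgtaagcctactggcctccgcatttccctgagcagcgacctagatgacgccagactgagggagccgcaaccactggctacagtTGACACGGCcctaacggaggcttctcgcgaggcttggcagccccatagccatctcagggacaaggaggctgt
PSMD8: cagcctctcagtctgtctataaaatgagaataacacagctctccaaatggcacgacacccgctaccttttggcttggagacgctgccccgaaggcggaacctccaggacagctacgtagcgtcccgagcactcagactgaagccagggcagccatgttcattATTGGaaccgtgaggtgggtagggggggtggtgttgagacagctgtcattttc
PSME4: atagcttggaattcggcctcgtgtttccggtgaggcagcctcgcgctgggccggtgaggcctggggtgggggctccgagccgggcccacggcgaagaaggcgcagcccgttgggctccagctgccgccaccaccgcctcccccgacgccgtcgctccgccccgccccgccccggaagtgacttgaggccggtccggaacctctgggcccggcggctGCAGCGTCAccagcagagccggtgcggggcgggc

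A RefSeq window of 300 bases, 250 before and 50 after the start, was at hand for 44 of the 50 members. The antioxidant response element core, sought on both strands, matched in 13 of them, or 29.5%, against 14.3% of all 15276 windows. The 13 include PSMB3, PSMC4, PSMD1, PSMD3, PSMD12, PSMD5, PSMG1 and PSME4, so genes called higher, called lower and not called below share it. The CCAAT box (CCAAT, both strands) matched in 21 members, or 47.7%, against 36.6% of all windows; neither pattern contains the other. The PSMD5 window held 19 CpG dinucleotides, against a median of 22 over all windows. A match describes letters in a window and is not evidence of a bound site.

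Gene counts summed to between 20300744 and 26459528 per library. UGT2B28 had 1124, 1554 and 1857 counts in rescue, 17, 8 and 1 in knockdown and 25, 4 and 10 in control. Its excess in rescue was clear, whereas knockdown against control did not pass the test, with a log2 fold change of −0.60 (SE 0.62) and an adjusted p of 0.52, so the counts do not show the knockdown. CPM, used throughout for levels, are depth-scaled counts. The luminal prostate markers that define the line were present in all 9 libraries, with summed CPM of 9370 to 10400 in rescue, 9250 to 9690 in knockdown and 4320 to 4570 in control. Of the 10 markers, 8 were called higher in knockdown than in control (80.0%, against 16.5% of all tested genes) and none lower; in rescue against control 8 were higher (80.0%, against 18.99%) and 1 lower, KRT8 at −0.21 (adjusted p = 0.026; not called without control replicate 2 or 3 or rescue replicate 1 or 3). The immune markers PTPRC and CD3E had no count in any library, and summed basal, neuroendocrine, endothelial and immune markers stayed under 10 CPM. Summed endothelial markers were 5.38 to 7.23 CPM in rescue, 5.15 to 6.18 in knockdown and 1.76 to 3.07 in control. Of these, VWF alone had enough counts to be tested and made up nearly all of the sum. CDH5 had 2, 1 and 0 counts in control and 0 in every library of both derived lines. Summed fibroblast markers were 57.9 to 70.6 CPM in rescue, 42.5 to 52.6 in knockdown and 62.0 to 71.8 in control. Among them COL1A1 alone had enough counts to be tested. The part that these marker differences have in the results below was not tested.

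PSMD5 stood apart from all other proteasome genes. It had 64, 84 and 116 counts in rescue, 367 to 434 in knockdown and 22, 4 and 19 in control. Scaled for depth, these are 3.14, 3.37 and 4.34 CPM in rescue, 15.9, 18.3 and 16.9 CPM in knockdown and 0.823, 0.186 and 0.863 CPM in control. The 3 groups did not overlap: the transcript was barely counted in control, highest in each knockdown library and intermediate in rescue. In bulk RNA, more transcript per cell cannot be told apart from more cells that carry it. The log2 fold change was 4.73 (SE 0.27) in knockdown against control, with an adjusted p of 8.3e-14 in edgeR's quasi-likelihood test. Rescue against knockdown gave −2.23 (SE 0.22, adjusted p = 4.1e-08) and rescue against control gave 2.50 (SE 0.29, adjusted p = 9.1e-08). PSMD5 was the only one of the 47 tested members called in 1 direction for knockdown against control and in the other for rescue against knockdown. How many of all tested genes had such opposite calls was not counted, so this number has no background beside it. These contrasts share the knockdown libraries. Because PSMD5 entered the test through the groups where it is high, member counts against control and between the lines are also given below without it and PSMB9.

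The genes around PSMD5 showed the same pattern at 1 place among those tested. CUTALP, a transcribed pseudogene on the opposite strand whose gene body overlaps PSMD5, had 12, 40 and 36 counts in rescue, 142, 96 and 93 in knockdown and 10, 5 and 5 in control, with no overlap between groups. Its log2 fold changes were 3.99 in knockdown against control (SE 0.41, adjusted p = 8.8e-09), −1.93 in rescue against knockdown (SE 0.34, adjusted p = 0.00027) and 2.06 in rescue against control (SE 0.44, adjusted p = 0.00042). The exons of the pair share no base in the gene models at hand, which are of another build than the counts. The strand setting of the counting is not given in the sources used here, so reads from unannotated parts of either gene could be counted for the other. With the counts of both genes added together, the 3 fold changes were 4.55, −2.16 and 2.39.
Among the other neighbours, FBXW2, B3GALT9, PHF19 and CNTRL were called in no contrast, while MEGF9 was lower in knockdown than in control (−0.47, SE 0.12, adjusted p = 0.0032) and lower in rescue than in control (−0.86, SE 0.12, adjusted p = 2e-06).

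**Figure D1:**
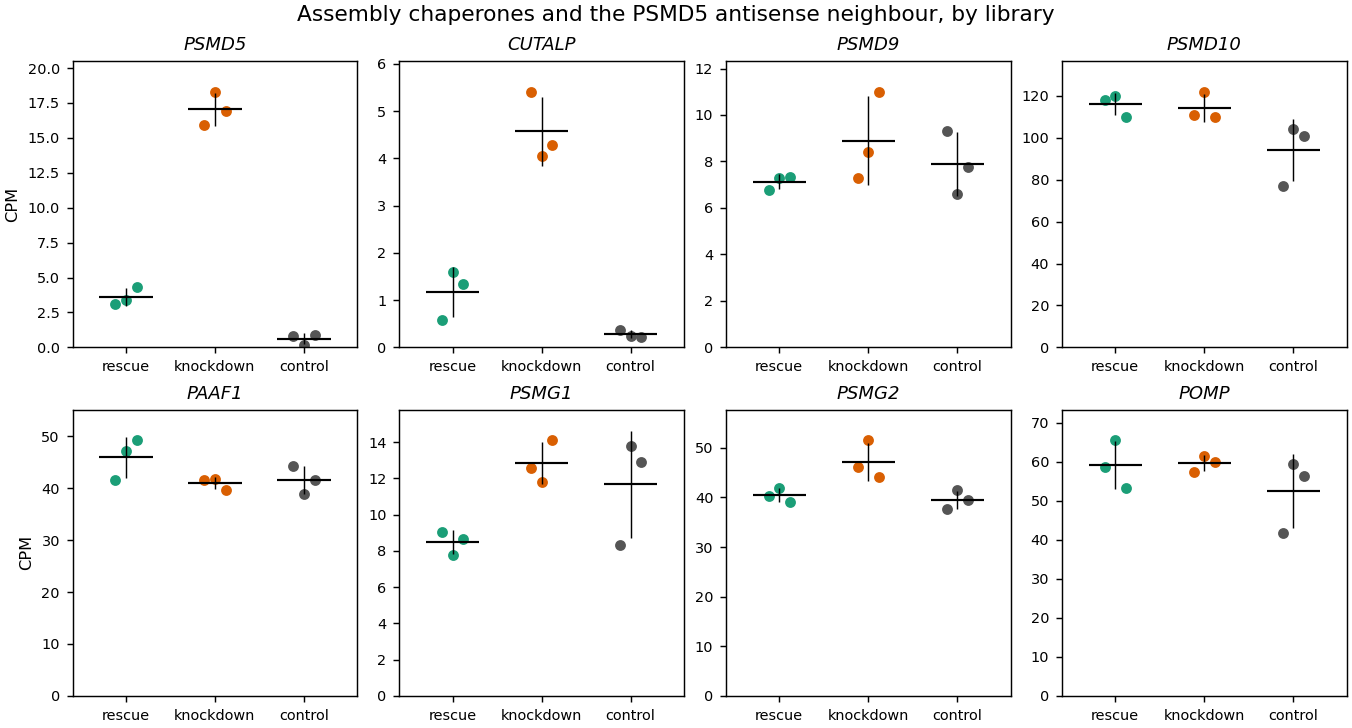
Levels of assembly chaperones and of CUTALP in each library, in CPM on axes that start at 0, for rescue, knockdown and control (3 libraries each; horizontal lines are means and vertical lines are SD). PSMD5 and its antisense neighbour CUTALP separate the groups, with knockdown at 15.9 to 18.3 CPM for PSMD5, while the other chaperones differ far less.

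The other chaperones of the cap did not follow PSMD5. PSMD10 (gankyrin), which binds the ATPase PSMC4, averaged 116 ± 5.15 CPM in rescue, 114 ± 6.75 in knockdown and 94.2 ± 14.8 in control (SD, n = 3 each). It was called higher in knockdown than in control (log2 fold change 0.28, adjusted p = 0.017) and higher in rescue than in control (0.30, adjusted p = 0.0084). Its control libraries were spread at 77.1, 104 and 101 CPM. Both calls were lost without control replicate 1, and the knockdown call also without knockdown replicate 2. PSMD9, the third of the PSMD-named cap chaperones, averaged 7.14 ± 0.322 CPM in rescue, 8.88 ± 1.88 in knockdown and 7.89 ± 1.37 in control and was called in no contrast. PAAF1, a further cap chaperone, was likewise called in none, with means of 46.0, 41.0 and 41.5 CPM in rescue, knockdown and control. Per kilobase of principal transcript, the scale on which genes can be set against each other, PSMD5 reached 1.05, 4.95 and 0.181 CPM per kb in rescue, knockdown and control, against 75.1, 73.9 and 60.9 for PSMD10. In knockdown, where PSMD5 was highest, each of the 17 ATPase, base and lid genes still exceeded it on this scale.

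The chaperones of the core were mostly level. PSMG1, which pairs with PSMG2 to seed the alpha ring, had 9.07, 7.78 and 8.65 CPM in rescue, 12.6, 11.8 and 14.1 CPM in knockdown and 8.31, 13.8 and 12.9 CPM in control. All rescue libraries lay below all knockdown libraries, but control replicate 1 fell among the rescue values. Rescue against knockdown gave a PSMG1 log2 fold change of −0.60 (SE 0.17, adjusted p = 0.021), and rescue against control gave −0.45 (SE 0.17, adjusted p = 0.035). Both calls rested on single libraries. Against knockdown it was lost without knockdown replicate 3 (adjusted p = 0.1), rescue replicate 2 or rescue replicate 3. Against control it was lost without control replicate 2 or 3 or rescue replicate 2 or 3, with adjusted p of up to 0.2, and in limma voom.
PSMG2 had 40.2, 41.9 and 39.1 CPM in rescue, 46.1, 51.5 and 44.1 CPM in knockdown and 37.7, 41.4 and 39.4 CPM in control, so knockdown lay above both other groups without overlap. Its call in knockdown against control (0.26, SE 0.09, adjusted p = 0.032) was lost without control replicate 1, control replicate 3 or knockdown replicate 2, with adjusted p of up to 0.18, and with total counts as the only scaling. PSMG3 and PSMG4, the second pair of core chaperones, were called nowhere, and neither was POMP, which helps the beta ring to mature.

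Across all members, knockdown was shifted upward against control. Of the 47 tested, 24 were called higher (51.1%, against 16.5% of all tested genes) and 1 lower, PSME4 (against 15.6% of all tested genes). In either direction 53.2% of the members were called, against 32.1% of all tested genes. The median log2 fold change of the members was 0.26, against 0.01 for all tested genes. Without PSMD5 and PSMB9, which passed the count filter mainly through the group where they are high, 23 of 45 were higher and 1 lower. Well-measured genes are called more often, so members with a mean of at least 30 CPM, a limit chosen after the data were seen, were set beside genes above the same limit: 21 of 37 members were higher (56.8%), against 23.4% of 6171 genes. The count rested in part on knockdown replicate 2. Without that library 14 of 47 members were higher and 1 lower, beside 2447 of 18830 tested genes higher and 2411 lower. With all libraries, 3030 of the 18389 tested genes were higher, so calls over all genes fell as well. Of the 25 member calls, 14 held whichever single library was left out.

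Rescue was shifted upward against control as well. There 22 members were called higher (46.8%, against 18.99% of all tested genes) and 2 lower, PSME4 and PSMG1 (against 18.8% of all tested genes). Without PSMD5 and PSMB9, 20 of 45 were higher (44.4%) and 2 lower. In either direction 51.1% of the members were called, against 37.8% of all tested genes, and their median log2 fold change was 0.23 against −0.003. Above 30 CPM, 19 of 37 members were higher (51.4%), against 26.7% of genes at that level. Knockdown and rescue were each set against the same 3 control libraries, so their values are not independent. PSME4 was called lower in both. Without control replicate 1, 16 members were higher in rescue than in control and 16 higher in knockdown than in control. Of the 18703 genes tested without that library, 2647 were higher in knockdown than in control, against 3030 of 18389 with all libraries.

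Rescue against knockdown changed few members. PSMA3 and PSMA4 were called higher and PSMD5 and PSMG1 lower, 4 of 47 or 8.51%, against 10.1% of all tested genes (5.20% higher and 4.88% lower), and the median log2 fold change was −0.01. Without PSMD5 and PSMB9, 3 of 45 were called (6.67%). The share is close to that of all genes, so as a group the members did not stand out in this contrast. Only the PSMD5 call held on leaving out each library in turn. The other 43 tested members did not pass the test, which does not show that they were equal.

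**Figure D2:**
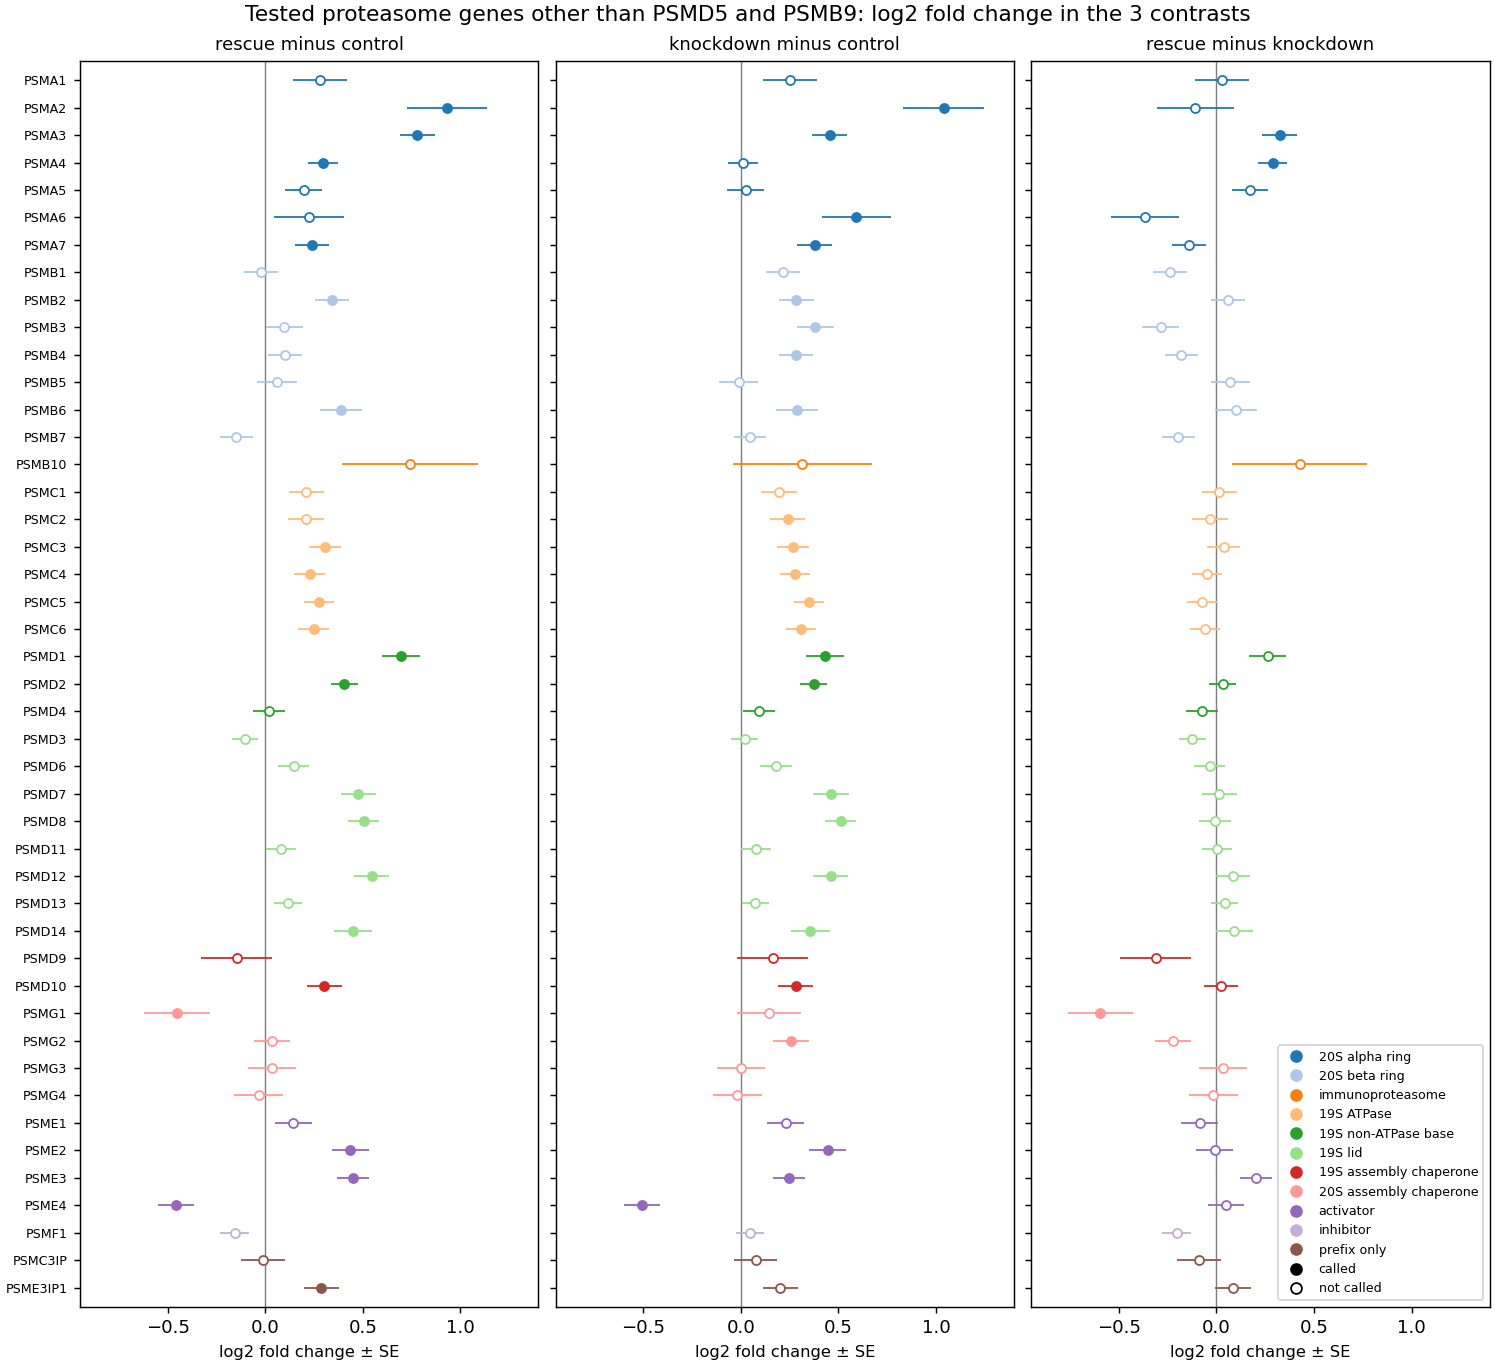
Log2 fold change ± SE of the 45 tested members other than PSMD5 and PSMB9 in rescue minus control, knockdown minus control and rescue minus knockdown, coloured by role (filled points passed an adjusted p of 0.05). Most points lie right of 0 in both contrasts with control, whose medians over all 47 tested members are 0.23 and 0.26, and scatter around 0 in rescue minus knockdown.

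The alpha ring, the gate of the core, had 4 of 7 tested genes higher in knockdown than in control (57.1%, against 16.5% of all tested genes) and 4 of 7 higher in rescue than in control (57.1%, against 18.99%). PSMA3 had 73.3, 85.1 and 82.6 CPM in rescue, 62.4, 69.9 and 60.1 CPM in knockdown and 42.1, 49.0 and 49.4 CPM in control. The groups did not overlap and were ordered rescue, knockdown, control from high to low. Its log2 fold changes were 0.46 in knockdown against control (SE 0.09, adjusted p = 0.00024), 0.32 in rescue against knockdown (SE 0.09, adjusted p = 0.017) and 0.78 in rescue against control (SE 0.09, adjusted p = 5.5e-08). The middle one was lost without knockdown replicate 1 or 3 or rescue replicate 2 or 3, with adjusted p of up to 0.1.
PSMA4 had 115, 130 and 123 CPM in rescue, 96.4, 109 and 96.7 CPM in knockdown and 95.1, 103 and 102 CPM in control, so only rescue stood apart. It was higher in rescue than in knockdown (0.29, SE 0.08, adjusted p = 0.014) and than in control (0.30, SE 0.08, adjusted p = 0.0026). Leaving out knockdown replicate 1 or 3 or rescue replicate 2 ended the call against knockdown (adjusted p of up to 0.097).

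PSMA2 and PSMA6, 2 more gate subunits, were counted at low levels. PSMA2 had 6.47, 8.14 and 7.72 CPM in rescue, 6.25, 7.53 and 10.4 CPM in knockdown and 4.27, 3.34 and 4.09 CPM in control, all libraries of both derived lines lying above control. Its log2 fold changes were 1.04 in knockdown against control (SE 0.21, adjusted p = 0.00024) and 0.93 in rescue against control (SE 0.21, adjusted p = 0.00064). In the gene models, 34.6% of its exon bases are shared with other genes, 14.6% on the same strand. Its reads may therefore be partly split or set aside as ambiguous. PSMA6, with 14.1% shared, had 8.33, 7.26 and 8.39 CPM in rescue, 8.47, 13.1 and 9.39 CPM in knockdown and 7.22, 7.01 and 6.27 CPM in control. It was called in knockdown against control (0.59, SE 0.18, adjusted p = 0.011), but not without knockdown replicate 2 (adjusted p = 0.14). PSMA7, the most abundant gene of the ring per kilobase, averaged 171 ± 14.2 CPM in rescue, 188 ± 19.3 in knockdown and 145 ± 17.2 in control and was higher in both lines than in control; the rescue call was lost without control replicate 1, rescue replicate 1 or rescue replicate 2. PSMA1 and PSMA5 were called in no contrast, and PSMA8, a testis subunit, had no count in any library.

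The beta ring had 4 of 7 tested genes higher in knockdown than in control (57.1%, against 16.5% of all tested genes) and 2 of 7 higher in rescue than in control (28.6%, against 18.99%). The subunits that carry the proteolytic sites are PSMB5, PSMB6 and PSMB7. PSMB5, the target of bortezomib, had 78.6, 88.1 and 69.5 CPM in rescue, 68.8, 73.2 and 82.9 CPM in knockdown and 63.8, 83.4 and 79.6 CPM in control. The groups overlapped throughout, and its log2 fold changes were −0.01 in knockdown against control, 0.07 in rescue against knockdown and 0.06 in rescue against control (SE 0.10 each). PSMB7 was also called in no contrast. PSMB6 was called against control in both lines, at 0.29 in knockdown (adjusted p = 0.047) and 0.39 in rescue (adjusted p = 0.0064), and the knockdown call was lost on leaving out any of 6 single libraries, all but control replicate 2 and rescue replicates 2 and 3.

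Among the structural beta subunits, PSMB3 had 70.7, 72.1 and 68.1 CPM in rescue, 79.3, 98.8 and 78.7 CPM in knockdown and 56.9, 72.6 and 67.8 CPM in control. Knockdown lay above both other groups, while rescue and control overlapped. It was higher in knockdown than in control (0.38, SE 0.09, adjusted p = 0.0025); rescue against knockdown gave −0.29 (SE 0.09) and missed the threshold at an adjusted p of 0.053. PSMB4 was called higher in knockdown only (0.28, adjusted p = 0.014), without a call once control replicate 1 or knockdown replicate 2 was left out, and PSMB2 higher in both lines than in control, with the same pair of libraries deciding the knockdown call. The summed level of the core genes was 1150 ± 57.1 CPM in rescue, 1180 ± 83.0 in knockdown and 1000 ± 106 in control (SD, n = 3 each).

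The immunoproteasome subunits, which replace the catalytic beta subunits in cells exposed to interferon, were close to absent. PSMB9 had 25, 14 and 60 counts in rescue, 1, 26 and 4 in knockdown and 8, 6 and 1 in control. Rescue lay above control in every library, but knockdown ranged over both. Its log2 fold change in rescue against control was 2.65 (SE 0.83, adjusted p = 0.014), and the call was lost without control replicate 3 (adjusted p = 0.064) or rescue replicate 3 (adjusted p = 0.1). PSMB8 had 11, 10 and 5 counts in rescue, 3, 2 and 2 in knockdown and 8, 8 and 4 in control and was not tested. PSMB10 averaged 2.38 ± 0.505 CPM in rescue, 1.77 ± 0.222 in knockdown and 1.41 ± 0.562 in control and was called in no contrast. PSMB11, of the thymus, had counts in control replicate 1 only, 4 in all.

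**Figure D3:**
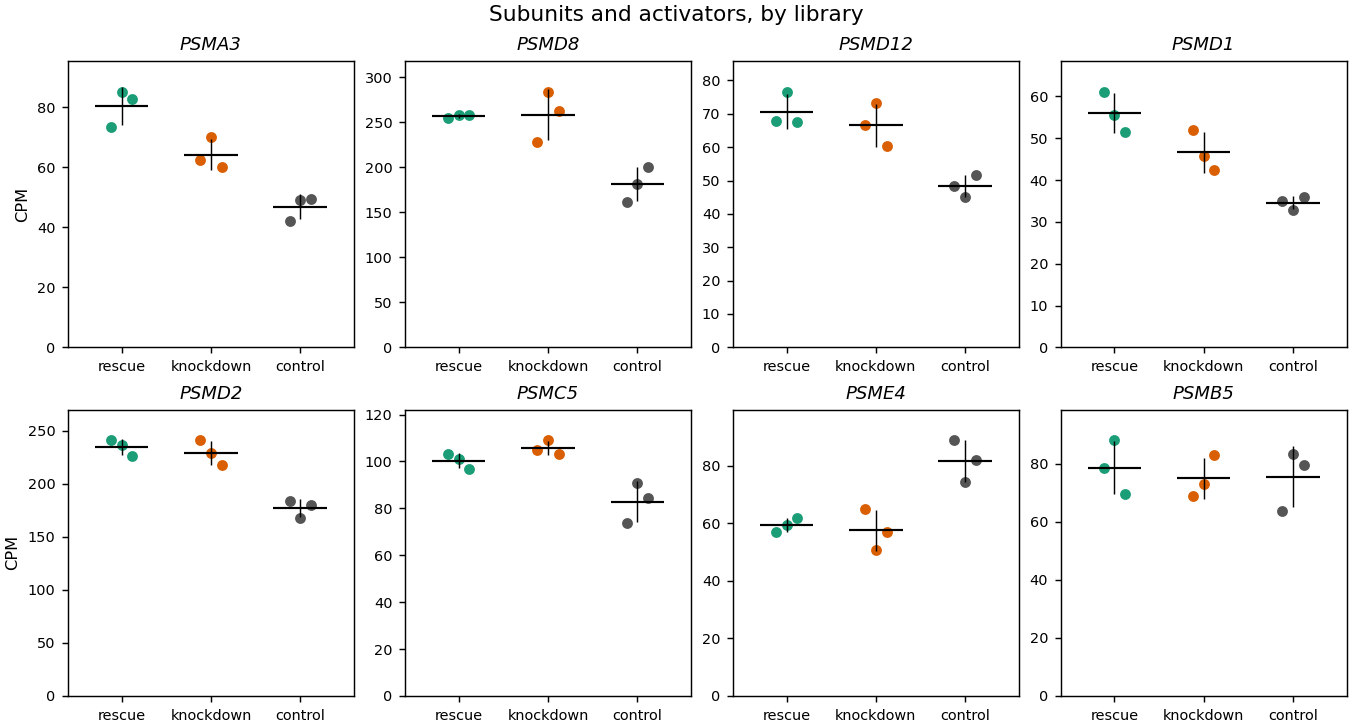
CPM by library of 8 core, cap and activator genes in rescue, knockdown and control (3 libraries each; lines are means, vertical lines SD, axes start at 0). PSMA3, PSMD8, PSMD12, PSMD1, PSMD2 and PSMC5 lie higher in both derived lines than in control, PSME4 lies lower in both, and PSMB5 overlaps in all groups.

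Genes of the cap were shifted upward too. Of its 17 ATPase, base and lid genes, 11 were higher in knockdown than in control (64.7%, against 16.5% of all tested genes) and 10 were higher in rescue than in control (58.8%, against 18.99%). None was lower in either by edgeR, at an unadjusted p under 0.05, in DESeq2 or in limma voom. In rescue against knockdown edgeR called 0 of the 17, as did DESeq2 and limma voom, and 1 had an unadjusted p under 0.05. The median log2 fold change was 0.28 in knockdown and 0.25 in rescue, against control. The summed level of the 17 was 2060 ± 40.0 CPM in rescue, 2080 ± 120 in knockdown and 1740 ± 92.4 in control.

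Of the 6 ATPases, which thread substrates into the core, 5 were higher in knockdown than in control (83.3%) and 4 higher in rescue than in control (66.7%), beside the same shares of all tested genes. PSMC5 had 103, 101 and 96.9 CPM in rescue, 105, 109 and 103 CPM in knockdown and 73.6, 90.9 and 84.2 CPM in control, both lines lying above control in every library. Its log2 fold changes were 0.35 in knockdown against control (SE 0.08, adjusted p = 0.001) and 0.27 in rescue against control (SE 0.08, adjusted p = 0.0067), the rescue call being lost without control replicate 1 (adjusted p = 0.054). In the gene models 19.5% of its exon bases are shared with FTSJ3, on the opposite strand. PSMC3, PSMC4 and PSMC6 were called higher in both lines too. The knockdown calls of PSMC3 and PSMC4 needed knockdown replicate 2, and that of PSMC3 also control replicate 1. The rescue calls of PSMC4 and PSMC6 needed control replicate 1, and that of PSMC4 also control replicate 3 and rescue replicate 2. PSMC2, the partner of PSMD5, was called in knockdown at 0.24 (adjusted p = 0.047) and not in rescue at 0.21 (adjusted p = 0.078). The PSMC2 call was lost on leaving out any of 7 single libraries, those other than control replicate 2 and knockdown replicate 3. PSMC1 was not called, at 0.20 in knockdown (adjusted p = 0.11) and 0.21 in rescue (adjusted p = 0.072). Of its exon bases, 75.8% are shared with NRDE2, on the opposite strand.

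In the base, the scaffold subunits PSMD1 and PSMD2 were higher in both lines and the ubiquitin receptor PSMD4 was called in no contrast. PSMD1 had 61.1, 55.6 and 51.5 CPM in rescue, 51.9, 45.7 and 42.3 CPM in knockdown and 35.1, 32.8 and 35.9 CPM in control. Control lay below both lines in all libraries, and rescue and knockdown overlapped at 51.5 and 51.9 CPM. Its log2 fold changes were 0.43 in knockdown (SE 0.10, adjusted p = 0.00096) and 0.69 in rescue (SE 0.10, adjusted p = 1.4e-06), both against control. PSMD2, where shuttle factors and the deubiquitinase USP14 dock, had 241, 237 and 226 CPM in rescue, 241, 229 and 218 CPM in knockdown and 184, 168 and 180 CPM in control. The derived lines overlapped and both lay above control, by 0.37 in knockdown (SE 0.07, adjusted p = 0.00013) and 0.40 in rescue (SE 0.07, adjusted p = 3.3e-05).

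In the lid, 4 of 8 genes were higher in knockdown than in control and the same 4 higher in rescue than in control, against 16.5% and 18.99% of all tested genes: PSMD7, PSMD8, PSMD12 and PSMD14. PSMD14 is the deubiquitinase of the lid and PSMD7 its inactive partner. PSMD8 had 255, 258 and 258 CPM in rescue, 228, 284 and 263 CPM in knockdown and 162, 182 and 200 CPM in control, with control below every library of both lines. The log2 fold changes were 0.51 in knockdown (SE 0.08, adjusted p = 1.5e-05) and 0.50 in rescue (SE 0.08, adjusted p = 1.3e-05). PSMD12, a structural lid subunit, had 67.9, 76.6 and 67.4 CPM in rescue, 66.5, 73.1 and 60.2 CPM in knockdown and 48.4, 45.1 and 51.8 CPM in control. It was higher by 0.46 in knockdown (SE 0.09, adjusted p = 0.00021) and by 0.54 in rescue (SE 0.09, adjusted p = 1.7e-05), and again no control library reached either line.
PSMD7 gave 0.46 in knockdown (adjusted p = 0.00025) and 0.48 in rescue (adjusted p = 0.00013), with 30.7% of its exon bases shared with a gene on the opposite strand. PSMD14 gave 0.36 in knockdown (adjusted p = 0.0056; not called without knockdown replicate 2) and 0.45 in rescue (adjusted p = 0.00054).

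The remaining lid genes, PSMD3, PSMD6, PSMD11 and PSMD13, were called in no contrast. PSMD3 had 234, 223 and 223 CPM in rescue, 235, 259 and 247 CPM in knockdown and 238, 249 and 243 CPM in control. Rescue lay below both other groups by a small margin, at −0.12 against knockdown (SE 0.07, adjusted p = 0.29) and −0.10 against control (SE 0.07, adjusted p = 0.24). Lid subunits join the finished particle in equal number, whereas their transcripts per kilobase in control ranged from 11.0 CPM per kb for PSMD12 to 117 for PSMD8, with 113 for PSMD3.

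The activators, which bind the ends of the core in place of the cap, moved in both directions. PSME4, a nuclear activator linked to histone degradation, had 57.0, 59.6 and 62.0 CPM in rescue, 65.1, 50.9 and 56.9 CPM in knockdown and 88.9, 74.4 and 82.2 CPM in control. Every library of both lines lay below every control library, and rescue and knockdown overlapped. Its log2 fold changes were −0.51 in knockdown (SE 0.09, adjusted p = 7.5e-05) and −0.46 in rescue (SE 0.09, adjusted p = 0.00019), and both calls held on leaving out each library in turn.
PSME3, which forms a nuclear activator of its own, had 86.2, 76.8 and 79.4 CPM in rescue, 72.3, 65.2 and 73.3 CPM in knockdown and 55.7, 61.8 and 60.1 CPM in control, ordered without overlap. It was higher in rescue than in control (0.45, SE 0.08, adjusted p = 7.3e-05). The call in knockdown against control (0.25, SE 0.08, adjusted p = 0.021) was lost without control replicate 1 or knockdown replicate 1 or 3, with adjusted p of up to 0.084, and with total counts as the only scaling. PSME2, which forms the interferon-inducible activator with PSME1, was higher in both lines (0.44 each, adjusted p = 0.00062 in knockdown and 0.00059 in rescue), while PSME1 at 0.23 in knockdown (adjusted p = 0.066) and 0.14 in rescue (adjusted p = 0.25) was not called.

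PSMF1, a regulator first described as an inhibitor of the core, had 87.5, 94.6 and 88.1 CPM in rescue, 103, 106 and 101 CPM in knockdown and 107, 99.4 and 95.1 CPM in control. Rescue lay below both other groups, but no contrast passed (−0.20 in rescue against knockdown, SE 0.07, adjusted p = 0.082). Of the genes that match by name only, PSME3IP1, which encodes a binding protein of PSME3, had 49.1, 47.0 and 48.7 CPM in rescue, 46.7, 46.9 and 42.8 CPM in knockdown and 37.1, 42.8 and 38.8 CPM in control. It was called in rescue against control (0.29, SE 0.09, adjusted p = 0.013), not without control replicate 1 (adjusted p = 0.053). PSMC3IP, a meiotic recombination factor, was called in no contrast.

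Genes outside the naming rule that work with the proteasome were read from lists of general knowledge. Of 4 further subunits and assembly factors, ADRM1, the ubiquitin receptor of the cap, had 96.7, 111 and 110 CPM in rescue, 126, 145 and 132 CPM in knockdown and 104, 101 and 114 CPM in control. It was higher in knockdown than in control (0.34, SE 0.08, adjusted p = 0.0014) and lower in rescue than in knockdown (−0.34, SE 0.08, adjusted p = 0.0042; not called without rescue replicate 1), and rescue and control overlapped. SEM1, a small lid protein, was called in rescue against control (0.33, adjusted p = 0.046), a call lost on leaving out any of several single libraries, control replicates 1 and 3 among them.

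Of 17 proteasome-binding partners, 4 were higher and 3 lower in knockdown than in control, 3 higher and 6 lower in rescue than in control, and 3 lower in rescue than in knockdown. The shares higher were 23.5% in knockdown and 17.6% in rescue, against 16.5% and 18.99% of all tested genes. The shares of all genes lower were 15.6% and 18.8%, so apart from the 6 lower in rescue the counts against control were near those of all genes. In rescue against knockdown 17.6% of the partners were called, all lower, against 4.88% of all tested genes called lower. ECPAS, a scaffold that tethers core to cap, had 180, 155 and 165 CPM in rescue, 229, 190 and 207 CPM in knockdown and 496, 442 and 446 CPM in control. Both lines lay far below control, at a log2 fold change of −1.14 in knockdown (SE 0.08, adjusted p = 2.6e-12) and −1.47 in rescue (SE 0.08, adjusted p = 8.8e-15). The further drop in rescue against knockdown (−0.33, SE 0.08, adjusted p = 0.0066) was lost without knockdown replicate 1 or rescue replicate 2.
The deubiquitinases of the cap went the other way. UCHL5, which sits on ADRM1, had 50.5, 55.1 and 51.0 CPM in rescue, 47.2, 49.0 and 43.3 CPM in knockdown and 24.4, 25.1 and 27.6 CPM in control, higher by 0.86 in knockdown (SE 0.10, adjusted p = 3.3e-08) and 1.02 in rescue (SE 0.09, adjusted p = 8.1e-10). USP14 was higher by 0.37 in knockdown (adjusted p = 0.00031) and 0.43 in rescue (adjusted p = 3.9e-05). ZFAND2A, an arsenite-inducible protein that binds the cap, was higher by 0.93 in knockdown (adjusted p = 4.1e-06) and 0.68 in rescue (adjusted p = 0.00023).

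**Figure D4:**
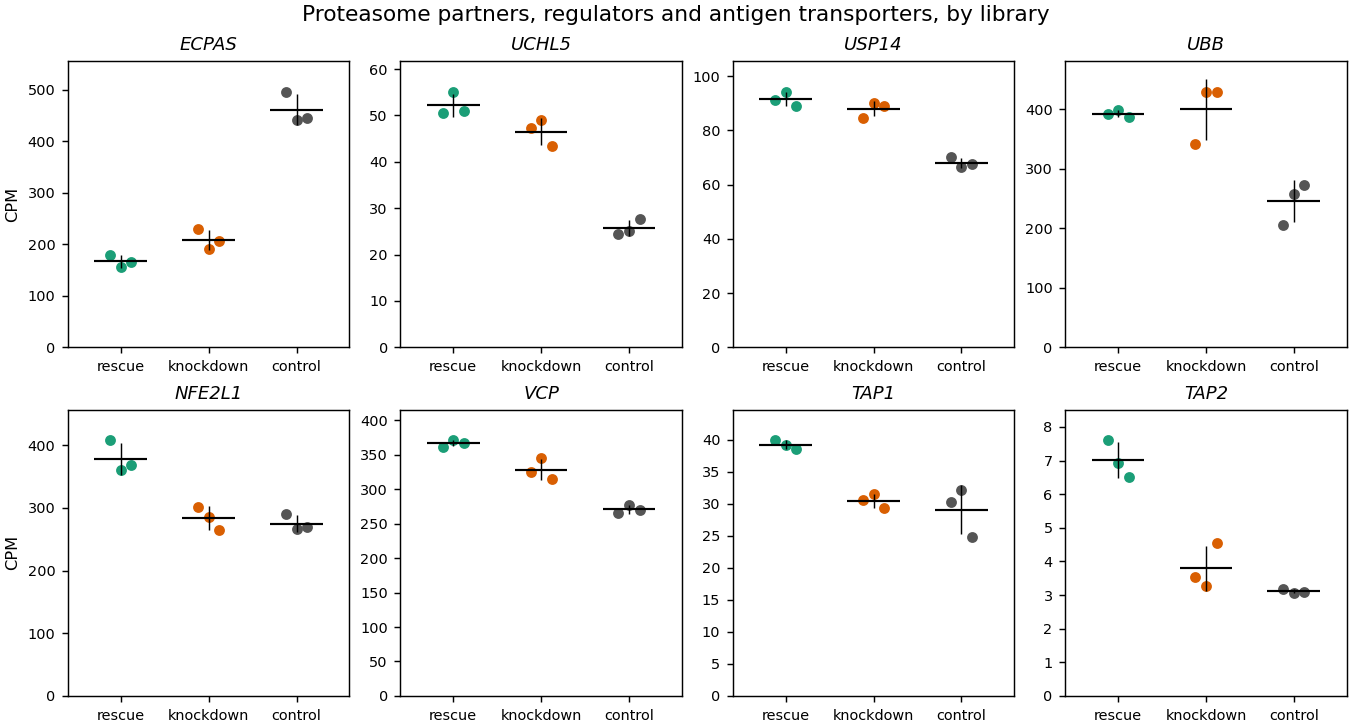
CPM by library of proteasome partners, UBB, NFE2L1, VCP and the antigen peptide transporters in rescue, knockdown and control (3 libraries each; lines are means, vertical lines SD, axes start at 0). ECPAS is lower and UCHL5, USP14, UBB and VCP are higher in both derived lines than in control, whereas NFE2L1, TAP1 and TAP2 stand apart in rescue.

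The transcript of NFE2L1 itself was higher in rescue. It had 408, 360 and 368 CPM in rescue, 302, 285 and 265 CPM in knockdown and 290, 266 and 269 CPM in control. Knockdown overlapped control (0.05, SE 0.07, adjusted p = 0.68), while rescue lay above both, by 0.41 against knockdown (SE 0.07, adjusted p = 0.0003) and 0.46 against control (SE 0.07, adjusted p = 1.1e-05). NFE2L1 is controlled largely at the protein level, which was not measured here. Of the 11 genes of its processing and partners, 4 were higher and 1 lower in knockdown than in control, and 4 higher and 2 lower in rescue than in control. The share higher was 36.4% in both, against 16.5% and 18.99% of all tested genes, of which 15.6% and 18.8% were lower. Rescue against knockdown had 1 call up (NFE2L1) and 2 down, or 27.3% called, against 10.1% of all tested genes. VCP, the segregase that extracts NFE2L1 and other clients from membranes, was higher by 0.28 in knockdown (adjusted p = 0.002) and 0.44 in rescue (adjusted p = 7.4e-06). NGLY1, which removes the sugars of NFE2L1, was higher in knockdown than in control (0.41, adjusted p = 0.00022), as was its small MAF partner MAFF (0.39, adjusted p = 0.00026), and neither was called in rescue against control. These were the 2 genes lower in rescue than in knockdown, NGLY1 at −0.26 (adjusted p = 0.037) and MAFF at −0.25 (adjusted p = 0.038). There the NGLY1 call was lost in 8 alternative fits and the MAFF call in 5, most of them with 1 library left out. Of the other small MAF genes, MAFG was lower in knockdown (−0.42, adjusted p = 0.00027) and in rescue (−0.40, adjusted p = 0.0003) than in control, and MAFK higher in knockdown (0.33, adjusted p = 0.0096; not called without control replicate 2 or 3) and in rescue (0.35, adjusted p = 0.005). Of 9 genes of VCP and its cofactors, 2 were higher and 2 lower in knockdown, and 2 higher and 3 lower in rescue, against control. The share higher was 22.2% in both, near the shares of all genes, of which 15.6% and 18.8% were lower. In rescue against control FAF2 was at −0.34 (adjusted p = 0.00038) and UBXN1 at −0.30 (adjusted p = 0.0031). FAF1 was higher than in control, by 0.37 in knockdown (adjusted p = 0.0011) and by 0.24 in rescue (adjusted p = 0.025). Its rescue call was lost without control replicate 1 or 2 or rescue replicate 1 or 2.

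UBB, which encodes a chain of ubiquitin units, had 392, 399 and 386 CPM in rescue, 341, 428 and 429 CPM in knockdown and 205, 258 and 272 CPM in control. All libraries of both lines lay above control, by 0.70 in knockdown (SE 0.10, adjusted p = 3.6e-06) and 0.68 in rescue (SE 0.10, adjusted p = 4.3e-06). The ubiquitin-activating enzyme UBA6 was lower in knockdown (−0.48, adjusted p = 1.1e-05) and in rescue (−0.43, adjusted p = 3.9e-05).
Of 11 heat shock genes, 6 were higher and 1 lower in knockdown than in control, and 2 higher and 2 lower in rescue than in control. The shares higher were 54.5% in knockdown, against 16.5% of all tested genes, and 18.2% in rescue, against 18.99%, so the rescue share was close to that of all genes. Of all tested genes, 15.6% were lower in knockdown and 18.8% in rescue. HSP90AA1 averaged 909 ± 5.65 CPM in rescue, 864 ± 32.3 in knockdown and 521 ± 30.9 in control, and DNAJB1 was higher in knockdown than in control (0.47, adjusted p = 5.7e-05) without a call in rescue against control. HSP90AB1, the paralogue of HSP90AA1, was lower in both lines, at −0.21 each (adjusted p = 0.037 in knockdown and 0.031 in rescue), and each call was lost on leaving out any of several single libraries, control replicates 2 and 3 among them.

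The genes that load proteasome products onto class I molecules were mostly higher in rescue than in knockdown. Of 10 antigen processing genes, 6 were higher in rescue than in knockdown, 60.0% against 5.20% of all tested genes. By edgeR, by DESeq2, by limma voom and at an unadjusted p under 0.05, 0 were lower there. Further, 2 were higher and 3 lower in knockdown than in control, beside 16.5% of all tested genes higher and 15.6% lower. In rescue against control 5 were higher and 1 lower, beside 18.99% of all tested genes higher and 18.8% lower. TAP2, a subunit of the peptide transporter, had 7.60, 6.94 and 6.52 CPM in rescue, 3.55, 3.28 and 4.56 CPM in knockdown and 3.18, 3.06 and 3.09 CPM in control. Rescue exceeded knockdown by 0.89 (SE 0.21, adjusted p = 0.0054) and control by 1.17 (SE 0.21, adjusted p = 6.6e-05).
NLRC5, an activator of class I genes, was lower in both lines than in control (−1.37 in knockdown, adjusted p = 4.4e-07; −1.23 in rescue, adjusted p = 1.7e-06). The class I genes are close copies of each other, so reads may be split between them. The summed level of PSMB8, PSMB9 and PSMB10 was 4.10 ± 0.440 CPM in rescue, 2.30 ± 0.513 in knockdown and 1.90 ± 0.786 in control.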

How the data were processed

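Total RNA of LNCaP cells was sequenced in 3 groups of 3 libraries. The authors deposited a table of raw read counts by gene for every library. The tools named per the submitters' processing notes are cutadapt, FastQC, HTSeq and HISAT2, with the hg19 build; the sources used here give no versions, library kit or strand setting. Summary rows that name no gene were left out. They held 48.83% to 50.71% of reads outside genes, 2.26% to 2.67% ambiguous reads and 5.26% to 7.62% reads without a unique place; genes held 40.3% to 42.92%. Columns of per-sample values not used number 0. Symbols came from a symbol table for 56414 gene identifiers and from GENCODE v29 for 444; 4022 had none.

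The count analysis used R 4.3.3 and edgeR 4.0.16: filterByExpr with a minimum count of 10, scaling by TMM (also used for CPM), and a robust quasi-likelihood fit to all 9 libraries with 1 mean per group and 6 residual degrees of freedom. A gene was called at a Benjamini-Hochberg adjusted p under 0.05 over all 18389 genes tested. Each adjusted p printed is from that fit, except those given for a left-out library. These are from the same test refitted without that library, over the genes that passed the filter there. The SE was worked back from the test statistic. CPM per kb divides by the length of the APPRIS principal transcript in GENCODE v29 (GRCh38), which also gave the shares of exon bases held in common with other genes; no coordinates were converted. The scripts were tested on simulated data. Depth limits genes with few counts most.

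The members, the gene lists and the comparisons were chosen with earlier results of these data known. Per-library values are given for PSMD5, for members called with an absolute log2 fold change of at least 0.5, and for the member of each class with the smallest adjusted p in knockdown against control or rescue against knockdown; of each other list, genes with the smallest adjusted p are named. Some genes of those lists are not reported here. Other genes named, PSMB5 with per-library values among them, were chosen after their values were seen. Alternatives were RLE scaling, total counts only, no filter, the replicate number as a block, only the 6 libraries compared, each library left out, pseudogenes (44) or the antisense gene added, DESeq2 1.42.0 and limma 3.58.1 voom.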

Additional observations from a re-analysis of the deposited data

How the results depend on the processing

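The number of members called in knockdown against control, 25 in all, was between 15 and 27 with 1 library left out, and lowest without knockdown replicate 2. Calls over all genes in that contrast were between 4858 and 5788, also lowest without knockdown replicate 2, against 5899 with all libraries. In rescue against control, 24 members were called, between 18 and 25 with 1 library left out. Calls over all genes there were between 5809 and 6995, against 6946 with all libraries. In rescue against knockdown, 4 members were called, between 1 and 7 with 1 library left out, so that this count depends on single libraries. PSMD5 was called there whichever library was left out. With total counts only, 20 members were higher and 1 lower in knockdown than in control. The replicate block gave 8 members called in rescue against knockdown (3 higher, 5 lower), 28 for knockdown and 26 for rescue, each against control. Over all genes the block gave 6348 calls in knockdown against control, beside 5899 without it. In rescue against knockdown it gave 2319, beside 1854. Same-numbered libraries correlated at −0.037 to 0.077 in their deviations from group means, and differently numbered ones at −0.089 to 0.077. The labels do not say whether equal numbers mark a pairing, and these correlations cannot decide it. The 3 PSMD5 values kept direction and call in all 54 alternative values. Of 476 alternative values for 28 other results on named members, 445 kept direction and call and 31 kept the direction and lost the call; none changed sign. Over all genes, calls in rescue against knockdown fell to 1196 without rescue replicate 1, against 1854 with all libraries. The cause of these shifts was not tested, and leaving out a library also lowers the number of libraries. Genes with few counts, such as PSMB8 and PSMB11, are limited by depth.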
